A study of Mus musculus with 40 samples.

Results

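Bleomycin and saline were compared in mice that all received saracatinib. The comparison covers 10 of the 40 libraries of the series, chosen by their labels in the raw count table of the bleomycin model: 5 from lungs of mice given bleomycin and then saracatinib, and 5 from lungs of mice given saline and then saracatinib. All mice were C57BL/6. Bleomycin at 1.5 U/kg or saline was placed in the lungs by the oropharyngeal route, and saracatinib at 20 mg/kg was given by gavage each day from day 10 after injury until day 28, when left lungs were taken, a span of 18 days. The 2 vehicle groups of the same model, 5 mice with bleomycin and 5 with saline, had the same schedule with vehicle by gavage. They are used here only to ask where the bleomycin effect differed between drug and vehicle mice. The saline mice also carry the drug, so the main comparison gives the bleomycin effect on a saracatinib background and not the effect of saracatinib itself. RNA came from left lungs, so each value averages all lung cell types.

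Bleomycin breaks DNA, injures the alveolar epithelium and is followed in mice by recruitment of monocyte-derived macrophages, activation of fibroblasts and deposition of collagen-rich matrix. TGF-β, released from its latent form by integrins at the surface of injured epithelium, is the best known driver of the fibroblast response. Saracatinib inhibits kinases of the Src family, which act below integrins, growth factor receptors and immune receptors and take part in adhesion, migration and the fibroblast response to TGF-β.

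The labels say that both sexes were studied, but all 20 libraries of the bleomycin model had 3 to 11 counts of Xist and 699 to 2234 counts of the Y-linked gene Ddx3y. These are the counts of male lungs in all 20. Lung markers were present in every library: surfactant gene Sftpc ran from 1155 to 3294 CPM (counts scaled to the library's total) and the club cell gene Scgb1a1 from 1381 to 4690 CPM. Total counts were 8.81 to 16.3 M in saline mice and 12.7 to 13.9 M in bleomycin mice, and 18846 genes passed the filter on low counts. Libraries are numbered 1 to 5 in each group, and "saline mouse" and "bleomycin mouse" below mean mice with saracatinib unless vehicle is named. Saline mice 3 and 5 stood apart from the other saline mice by high airway transcripts. The ciliated cell transcription factor gene Foxj1 was at 225 and 314 CPM in them, against 94.1 to 128 CPM in saline mice 1, 2 and 4, and their total counts (8.81 and 9.72 M) were the lowest of the 20 libraries apart from 9.51 M in saline vehicle mouse 5. Values without both of these libraries, a setting chosen after the data were seen, are given beside the counts and named calls of the main comparison that they change. Saline vehicle mouse 5 resembled them, with Foxj1 at 207 CPM. The labels call the libraries replicates and do not say whether each is a single animal, so the p-values measure the spread between these libraries, which may be partly technical. A mouse, numbered or counted by group, means 1 library in this text.

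In saracatinib mice, bleomycin was followed by higher transcripts of lipid-handling and matrix-degrading macrophages, of regulatory T cells, of MHC class II and of type I interferon-stimulated genes, and by lower transcripts of airway epithelium, smooth muscle and the mitochondrial genome. Without saline mice 3 and 5 the counts of lower members went from 16 to 0 for ciliated cells, from 9 to 2 for club cells, from 10 to 1 for smooth muscle and from 11 to 6 for the mitochondrial genome. The counts of higher members went from 20 to 18 for macrophages and from 11 to 6 for regulatory T cells. They went from 11 to 7 for MHC class II and from 12 to 4 for interferon-stimulated genes. With these libraries left out, calls over all genes also went from 3011 to 1055. List medians went from 1.36 to 1.24 for macrophages, 1.12 to 1.10 for regulatory T cells and 0.79 to 0.70 for MHC class II. For interferon-stimulated genes they went from 0.69 to 0.36, for ciliated cells from -1.14 to -0.61 and for club cells from -1.25 to -0.73. For smooth muscle they went from -0.54 to -0.43 and for the mitochondrial genome from -0.94 to -0.56. The fibrillar collagen gene Col3a1 rose by 0.68 on the log2 scale against 4.39 for the macrophage gene Mmp12, and edgeR called 0 of 25 mitosis genes. Of 18846 genes tested, 3011 (16.0%) were called at an adjusted p under 0.05 by edgeR's quasi-likelihood test, of which 1469 (7.79%) were higher and 1542 (8.18%) lower after bleomycin. The CPM of the 5 bleomycin mice and the 5 saline mice did not overlap for 2022 genes (10.7%). The median log2 fold change over all genes tested was -0.015. At an unadjusted p under 0.05 there were 5652. The count of calls rests in part on single libraries. It was 1672 without bleomycin mouse 1, 1828 without bleomycin mouse 4, 1829 without saline mouse 5 and 1838 without saline mouse 3, and 1055 without saline mice 3 and 5 together, of which 619 were higher and 436 lower. The count of lower genes was also 792 without bleomycin mouse 5.

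The 10 largest rises are given here among called genes with a mean of at least 1 CPM and no overlap between groups, without immunoglobulin segments and predicted genes. Larger rises with overlap, such as that of Jchain (4.06), are thus not among them. Mmp12, the macrophage elastase (ENSMUSG00000049723, chromosome 9, 7344381 to 7369499 on GRCm38), was at 3.73, 1.64, 1.24, 2.51 and 1.34 CPM in saline mice 1 to 5 and at 56.4, 12.8, 40.7, 60.5 and 61.6 CPM in bleomycin mice 1 to 5. Every bleomycin mouse was above every saline mouse, and bleomycin mouse 2 was the lowest of its group. The log2 fold change was 4.39 ± 0.37 (SE, adjusted p = 1.26e-06). Kng2, a kininogen gene, rose by 4.80 ± 0.70, from 0 to 0.672 CPM up to 1.08 to 13.2 CPM. Its reads are uncertain because its paralog Kng1 is very similar. Thbs4, a matricellular thrombospondin, rose by 3.88 ± 0.76. Bleomycin mice 1 and 4 held most of its signal, at 16.2 and 13.0 CPM against 1.00 to 3.20 CPM in the other bleomycin mice and 0.358 to 0.720 CPM in saline mice.

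Trem2, a lipid receptor of macrophages, rose by 3.44 ± 0.25. Stra6l, which encodes a retinol-binding protein receptor, rose by 2.90 ± 0.35. Cemip, needed for hyaluronan breakdown, rose by 2.87 ± 0.51, and Ereg, the EGF receptor ligand epiregulin, by 2.85 ± 0.63. The next were the nonclassical MHC class I gene H2-M2 (2.74 ± 0.40), the macrophage glycoprotein gene Gpnmb (2.72 ± 0.27) and the aspartic protease gene Pgc (2.63 ± 0.27). Pgc was at 0.514 to 0.903 CPM in saline mice and at 3.73 to 6.25 CPM in bleomycin mice, a narrow range within each group. These 10 genes, Mmp12 to Pgc, kept their calls in each of the 20 fits that left out 1 library.

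The 10 largest falls were taken by the same rule. Asgr1, a subunit of the asialoglycoprotein receptor, fell by 3.27 on the log2 scale, from 2.81, 2.49, 4.52, 2.95 and 5.45 CPM in saline mice to 0.152, 0.433, 0.771, 0.306 and 0.156 CPM in bleomycin mice, without overlap. Capn13, a calpain protease gene, fell by 2.69 and Lypd2, which encodes a small Ly6-type surface protein, by 2.20. Muc5b, the gel-forming mucin of airway secretory cells, was at 298 to 1678 CPM in saline mice, with saline mice 3 and 5 at 954 and 1678 CPM, and at 130 to 275 CPM in bleomycin mice. Its log2 fold change was -1.98 ± 0.41 (adjusted p = 0.00395), and -1.08 (adjusted p = 0.073) without saline mice 3 and 5. Atp6v1b1, a proton pump subunit, moved the same way (-1.87, and -1.08 with adjusted p = 0.16 without these mice). Chad fell by 1.87 and the imprinted gene Zdbf2 by 1.99. The transfer RNA genes mt-Tt (-2.13) and mt-Tm (-1.83) were called as well, although the adjusted p of mt-Tm was 0.053 without the same mice. The ectonucleotidase gene Entpd8 (-2.26) lost its call without saline mouse 5 (adjusted p = 0.0636) and without saline mice 3 and 5 (0.15).

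**Figure D1:**
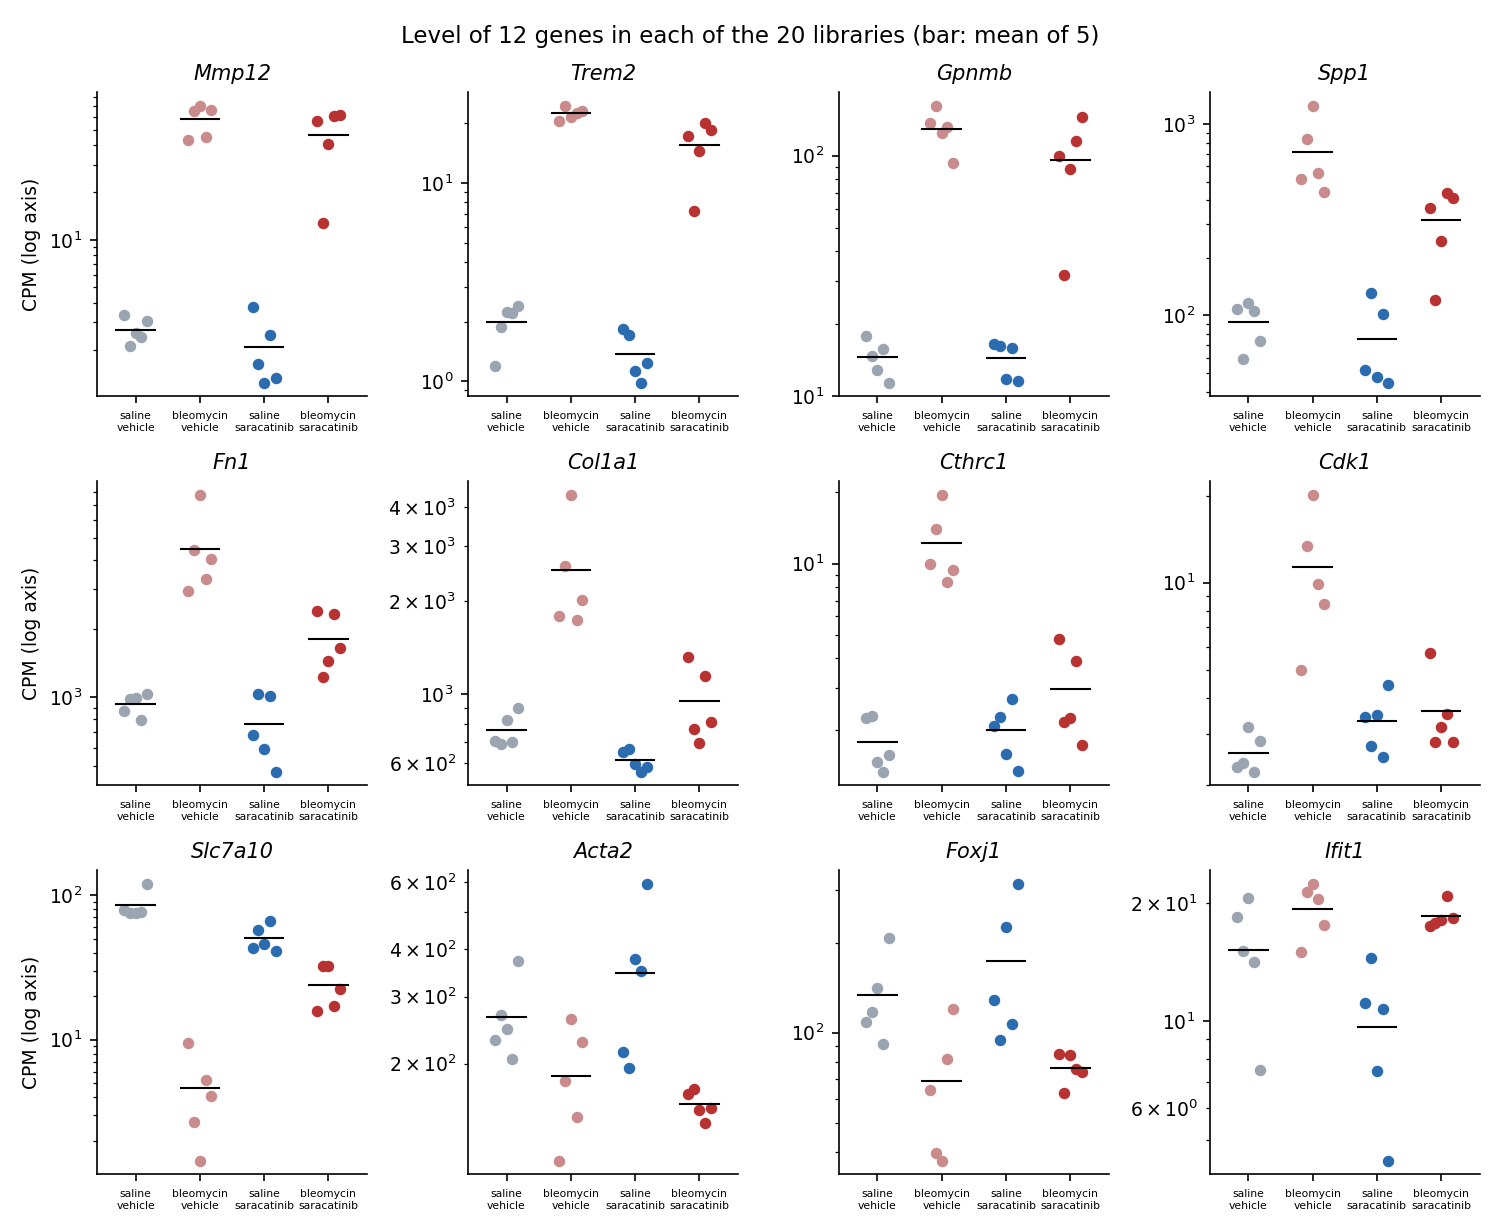
CPM on a log axis of 12 genes in each of the 20 libraries of the bleomycin model, 5 mice a group, with a bar at the mean of 5. Mmp12, Trem2 and Gpnmb are higher in all 5 bleomycin mice with either treatment, the highest Cthrc1 and Cdk1 points (19.5 and 20.1 CPM) are bleomycin mice given vehicle, and saline saracatinib mice 3 and 5 hold the highest Foxj1 points at 225 and 314 CPM.

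Macrophage genes rose in the majority of their list, which like all 43 lists was chosen with earlier results of these data known. Scar-associated and monocyte-derived macrophages accumulate in injured lung and are marked by lipid handling, lysosomal and complement genes. Of 24 tested markers, 20 rose and 0 fell, with a median log2 fold change of 1.36 over the 24, and 18 were higher without saline mice 3 and 5 (median 1.24). Trem2 was at 0.985 to 1.83 CPM in saline mice and at 17.2, 7.21, 14.5, 20.2 and 18.4 CPM in bleomycin mice. Gpnmb was at 11.6 to 16.4 CPM in saline mice and at 99.9, 32.0, 88.1, 115 and 144 CPM in bleomycin mice. Spp1, which encodes osteopontin, went from 51.7, 130, 47.5, 101 and 44.5 CPM to 365, 120, 245, 438 and 412 CPM (2.07 ± 0.37, adjusted p = 0.00124). For Spp1 the groups overlapped, because bleomycin mouse 2 lay below saline mouse 2. Bleomycin mouse 2 was the lowest of its group for all 4 of Mmp12, Trem2, Gpnmb and Spp1.

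The complement genes C1qa and C1qb, made by tissue macrophages, rose by 1.64 ± 0.21 and 1.94 ± 0.24. The lysosomal marker Cd68 rose by 1.74, the lipoprotein gene Apoe by 1.29 and the growth factor gene Igf1 by 1.43. Ms4a7, a marker of monocyte-derived macrophages, rose by 2.29 and Cx3cr1, the fractalkine receptor, by 1.66. Ccr2, the receptor that draws monocytes out of blood, rose from 16.9 to 36.2 CPM in saline mice to 41.2 to 47.4 CPM in bleomycin mice (0.79 ± 0.16). The 4 members not called were Chil3 (0.86), the alternative activation enzyme Arg1 (0.76 ± 0.57), Fabp5 (0.62) and Pdgfa (-0.07). In bulk lung RNA, more cells of a type and more RNA per cell cannot be told apart.

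Of 15 alveolar macrophage markers, 4 rose and 4 fell. The higher count was 2 without saline mouse 3, the lower count was 1 without saline mouse 2 or bleomycin mouse 1 and 2 without saline mouse 4 or bleomycin mouse 3, 4 or 5, and without saline mice 3 and 5 there were 2 higher and 4 lower. Atp6v0d2, a lysosomal proton pump subunit, rose by 2.00 ± 0.28 and the lipase gene Lpl by 1.22 ± 0.21. Krt79 fell by 2.03 and Marco, a scavenger receptor, by 1.61, but Marco lost its call in 9 of 20 fits that left out 1 library. Among 11 neutrophil markers 1 rose (Clec4d, 1.45), and it was not called in 4 of those fits or without saline mice 3 and 5 (adjusted p = 0.16).

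Genes of the extracellular matrix rose in a minority of each list, but in a larger share than the 7.79% called higher over all genes tested. Of 34 matrix glycoproteins and proteoglycans, 13 rose and 0 fell (median 0.49), and 8 were higher without saline mice 3 and 5. Fn1, which encodes fibronectin, was at 683, 1036, 592, 1011 and 470 CPM in saline mice and at 2391, 1223, 1438, 2311 and 1651 CPM in bleomycin mice, without overlap (1.25 ± 0.26, adjusted p = 0.00344). Tnc, the wound matrix protein tenascin C, rose by 1.82 ± 0.32, from 38.3 to 49.5 CPM in saline mice to 269, 81.5, 115, 190 and 148 CPM in bleomycin mice. Cilp rose by 2.01 ± 0.39 and the elastic fibre gene Eln by 1.22 ± 0.16, from 380 to 476 CPM to 718 to 1316 CPM. For Tnc, Cilp and Eln, as for Thbs4, bleomycin mice 1 and 4 were the highest.

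Fewer collagens were called. Of 35 collagens and collagen-modifying enzymes 8 rose and 1 fell (median 0.23). The count of higher members was 3 without saline mouse 3, bleomycin mouse 1 or bleomycin mouse 4, 5 without saline mouse 1, and 0 without saline mice 3 and 5. The count of lower members was also 0 without saline mice 3 and 5. Col3a1, the chain of collagen III, was at 899, 868, 740, 730 and 590 CPM in saline mice and at 1517, 1166, 1001, 1253 and 1175 CPM in bleomycin mice (0.68 ± 0.15, adjusted p = 0.00542, and 0.054 without saline mice 3 and 5). Col1a1, a chain of collagen I and the main fibrillar collagen of scar, was at 653, 665, 597, 564 and 585 CPM in saline mice and at 1320, 772, 697, 1146 and 814 CPM in bleomycin mice. All bleomycin mice were above all saline mice, and the log2 fold change of 0.63 ± 0.21 just missed the threshold (adjusted p = 0.0502). It was called in 6 of the 20 fits that left out 1 library. The adjusted p was 0.00976 without vehicle bleomycin mouse 3, 0.0331 without bleomycin mouse 3, 0.0424 without bleomycin mouse 2, 0.0455 and 0.0464 without vehicle bleomycin mice 4 and 1 and 0.0467 without saline vehicle mouse 5. Without saline mice 3 and 5 it was 0.20. Col1a2, the partner chain, gave 0.45 ± 0.17 (adjusted p = 0.0812). The cartilage-type genes Col10a1 (3.12) and Col11a1 (2.26) were called, lost the call in 5 and 4 of 20 fits that left out 1 library, and had adjusted p = 0.087 and 0.065 without saline mice 3 and 5. The crosslinking enzyme gene Lox gave 0.24 ± 0.23 and was not called.

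Of 29 matrix proteases and inhibitors, 13 rose and 1 fell (median 0.60), and 9 were higher and 0 lower without saline mice 3 and 5. Mmp2, the gelatinase of fibroblasts, rose by 1.56 ± 0.13 (adjusted p = 1.26e-06), from 74.1 to 89.9 CPM to 182 to 299 CPM. The lysosomal cysteine protease gene Ctss rose by 2.22 ± 0.25. Timp1, an inhibitor of metalloproteinases, was at 2.06 to 4.76 CPM in saline mice and at 13.1, 4.90, 3.78, 10.2 and 13.1 CPM in bleomycin mice (1.35 ± 0.45, adjusted p = 0.0448). It lost its call in 11 of 20 fits that left out 1 library and without saline mice 3 and 5 (adjusted p = 0.19).

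Markers of activated fibroblasts were mostly not called. Of 19 tested, 4 rose and 2 fell, beside 7.79% higher and 8.18% lower over all genes tested. The 4 were Cilp, Tnc, the Wnt antagonist gene Sfrp1 (1.26) and the latent TGF-β binding protein gene Ltbp2 (1.11). The 2 that fell, Acta2 and Tagln, are also smooth muscle genes. Without saline mice 3 and 5 the adjusted p was 0.051 for Sfrp1, 0.088 for Acta2 and 0.072 for Tagln. Cthrc1, a secreted protein of matrix-producing fibroblasts, was at 2.08, 2.26, 1.58, 2.69 and 1.34 CPM in saline mice and at 4.80, 2.16, 2.24, 3.90 and 1.72 CPM in bleomycin mice, with overlap (0.56 ± 0.31, adjusted p = 0.232). Postn, which encodes periostin, gave 0.02 ± 0.17. Lrrc15 (2.66 ± 1.03), Grem1 (1.39 ± 0.55) and the activin subunit gene Inhba (0.20 ± 0.41) were not called either. Of 15 markers of alveolar fibroblasts, the lipid-storing support cells of the alveolus, 2 rose (Lpl and Plin2) and 2 fell (Slc7a10 and Ces1d), and Plin2 and Ces1d were not called without saline mice 3 and 5 (adjusted p = 0.069 and 0.078). Lpl is also counted among the alveolar macrophage markers above.

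In the TGF-β and activin pathway 13 of 30 members rose and 1 fell, the binding protein gene Ltbp4. The receptor genes Tgfbr1 and Tgfbr2 rose by 0.62 ± 0.11 and 0.53 ± 0.10, and the feedback regulator Pmepa1 by 0.68 ± 0.16. Itgb6, the integrin subunit of injured epithelium that activates latent TGF-β, was at 28.5 to 89.4 CPM in saline mice and 78.6 to 122 CPM in bleomycin mice (0.89 ± 0.26). It lost its call in 4 of 20 fits that left out 1 library and without saline mice 3 and 5 (adjusted p = 0.18). The ligand gene Tgfb1 gave 0.27 ± 0.14 and was not called. The count of higher members was 5 without saline mouse 3, 7 without saline mouse 5, 6 without bleomycin mouse 1, 7 without bleomycin mouse 4 or 5, and 6 without saline mice 3 and 5.

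Among 24 genes of Src family kinases and focal adhesions, 4 rose and 1 fell, with a median of -0.03. These counts are near the share of 16.0% called over all genes tested. Those that rose included the kinase genes Fgr (0.93), Ptk2b (0.56) and Lck (0.54), of which Lck is a T cell kinase and lost its call in 7 of 20 fits that left out 1 library. Without saline mice 3 and 5 the adjusted p was 0.10 for Fgr, 0.055 for Ptk2b and 0.16 for Lck. The fall was in the adhesion gene Zyx (-0.37). Src itself was at 85.9 to 95.8 CPM in saline mice and 95.2 to 103 CPM in bleomycin mice (0.14 ± 0.06, adjusted p = 0.0977). The count of 4 was 2 without saline mouse 3 and 0 without saline mice 3 and 5, where 2 were lower. The count of lower members was 0 without saline mouse 3 or 4 or bleomycin mouse 1, 3, 4 or 5, and 2 without vehicle bleomycin mouse 3, and limma voom called 3.

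Of 15 genes of regulatory T cells and checkpoints, 11 rose and 0 fell (median 1.12), with 7 without bleomycin mouse 1 and 6 without saline mice 3 and 5. Foxp3, the transcription factor that defines regulatory T cells, was at 0.611, 0.701, 0.790, 0.358 and 0.617 CPM in saline mice and at 5.03, 1.73, 4.16, 5.97 and 1.95 CPM in bleomycin mice. These low values did not overlap, and the log2 fold change was 2.6 ± 0.37 (adjusted p = 0.000207). The costimulatory receptor gene Tnfrsf9 rose by 2.30 ± 0.39 and the inhibitory receptor gene Ctla4 by 2.06 ± 0.51, and Ctla4 was not called without saline mice 3 and 5 (adjusted p = 0.078). Of 19 T cell and natural killer markers, 10 rose and 0 fell, with 6 without saline mouse 4, 5 without saline mouse 5, 4 without bleomycin mouse 1 or 4 and 5 without saline mice 3 and 5. They included Cd4 (1.01 ± 0.22), the interleukin 7 receptor gene Il7r (0.82 ± 0.15) and the T cell receptor subunit gene Cd3e (0.79 ± 0.22), which was not called without saline mice 3 and 5 (adjusted p = 0.071). The cytotoxic genes Cd8a (0.46), Prf1 (0.42), Nkg7 (0.47), Gzma (-0.05) and Gzmb (-0.07) were not called.

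Plasma cell and immunoglobulin genes spread widely between mice. Of 13 tested, 10 rose by edgeR and DESeq2 and 4 by limma voom. By edgeR there were 5 without saline mouse 3 or bleomycin mouse 1, 6 without saline mouse 5 and 3 without saline mice 3 and 5. Jchain, which joins secreted IgA and IgM, was at 2.99, 10.7, 1.47, 1.34 and 2.37 CPM in saline mice and at 233, 5.70, 17.7, 37.7 and 34.5 CPM in bleomycin mice (4.06 ± 0.79, adjusted p = 0.0023). Bleomycin mouse 1 was far above the rest, and bleomycin mouse 2 lay below saline mouse 2. For Ighg2c, an IgG2c constant gene whose reads may be shared with other IgG genes, bleomycin mice ran from 0.577 to 266 CPM (6.55 ± 1.83), and the adjusted p was 0.12 without saline mice 3 and 5. Of 14 B cell markers 1 rose (Blnk, 0.51), and it lost its call in 6 of 20 fits that left out 1 library and without saline mice 3 and 5 (adjusted p = 0.13).

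All 11 genes of MHC class II presentation rose, with 7 higher without saline mice 3 and 5. H2-Aa, a class II chain, was at 218, 205, 192, 186 and 129 CPM in saline mice and at 437, 362, 307, 438 and 379 CPM in bleomycin mice, without overlap (1.05 ± 0.13, adjusted p = 6.31e-05). The invariant chain gene Cd74 rose by 1.01 ± 0.14 and the peptide exchange gene H2-DMa by 0.77 ± 0.14. Ciita, the master regulator of class II genes, rose by 0.70 ± 0.20. It lost its call in 2 of 20 fits that left out 1 library and without saline mice 3 and 5 (adjusted p = 0.13). Of 24 chemokines and cytokines 7 rose and 0 fell (13 by DESeq2), with 12 without saline mouse 1, 11 without bleomycin mouse 3 and 3 without saline mice 3 and 5. Cxcl10, the interferon-induced ligand of CXCR3, was at 0.234 to 0.672 CPM in saline mice and 1.08 to 3.66 CPM in bleomycin mice (2.13 ± 0.50, with adjusted p = 0.052 without saline mice 3 and 5). The macrophage chemokine gene Ccl6 rose by 1.76 ± 0.34. Il6 (0.31) and Tnf (0.83) were not called.

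Type I interferon signals through transcription factors that bind the interferon-stimulated response element in promoters of antiviral genes. Of 17 such genes 12 rose and 0 fell (median 0.69), and 10 of the 17 did not overlap between groups. Without saline mice 3 and 5 the median was 0.36 and 4 were higher. Ifit1, an RNA-binding antiviral protein, was at 11.1, 14.5, 7.45, 10.7 and 4.42 CPM in saline mice and at 17.4, 17.8, 18.0, 20.8 and 18.3 CPM in bleomycin mice (0.92 ± 0.24, adjusted p = 0.0155, and 0.11 without saline mice 3 and 5). The spread was in the saline mice, of which saline mouse 5 and saline mouse 3 were the lowest. Ifit3, another member of that family, rose by 0.90 ± 0.20, and remained called without them (0.58, adjusted p = 0.035). The oligoadenylate synthetase gene Oas3 rose by 2.07 ± 0.30, from 0.926 to 4.27 CPM to 8.36 to 15.5 CPM. Rsad2, which encodes viperin, rose by 1.11 ± 0.29 and Oas1a by 0.71 ± 0.19, and neither was called without saline mice 3 and 5 (adjusted p = 0.12 and 0.15). Reads of Oas1a and Ifit3 may be shared with close paralogs.

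RefSeq promoters on GRCm38.p6 (250 bases before to 50 after the start) were matched by symbol for 11 of the 17 genes. The core of the response element, GAAA, then any 2 bases, then GAAA, was searched on both strands and stood in 3.44% of 32851 promoters, and in 7 of these 11. The other 2 members that hold it, Isg15 and Bst2, were not called. It stood in 5 of the 8 higher members with a promoter, for which a window of 100 bases, taken from before the start, is shown so that the element can be read beside the values above. Capitals mark the matches, which can overlap, and a match on the other strand reads TTTC, 2 bases, TTTC.
Ifit1, chr19:34640749-34640848, plus strand: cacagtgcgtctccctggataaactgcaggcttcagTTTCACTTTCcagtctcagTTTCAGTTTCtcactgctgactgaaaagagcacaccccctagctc
Ifit3, chr19:34583345-34583444, plus strand: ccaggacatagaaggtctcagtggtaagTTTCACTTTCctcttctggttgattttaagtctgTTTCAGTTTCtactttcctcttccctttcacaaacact
Oas1a, chr5:120907526-120907625, minus strand: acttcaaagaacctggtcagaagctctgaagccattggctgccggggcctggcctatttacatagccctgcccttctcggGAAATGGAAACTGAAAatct
Oas3, chr5:120777680-120777779, minus strand: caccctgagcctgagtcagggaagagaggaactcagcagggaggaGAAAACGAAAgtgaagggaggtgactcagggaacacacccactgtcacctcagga
Rsad2, chr12:26456518-26456617, minus strand: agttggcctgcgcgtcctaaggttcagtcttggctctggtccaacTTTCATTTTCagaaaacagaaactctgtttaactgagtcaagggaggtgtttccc
Ifit1 and Ifit3 hold 2 matches each on the other strand, and Oas1a holds 2 that overlap.

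Airway epithelium was lower after bleomycin, and the calls and the size of the fall depend on saline mice 3 and 5. Each of the 16 tested ciliated cell markers was called lower (median -1.14), and 14 of them did not overlap between groups. Their summed CPM was 1727 to 5268 in saline mice and 1193 to 1558 in bleomycin mice. Foxj1, the regulator of motile cilia, was at 128, 94.1, 225, 107 and 314 CPM in saline mice and at 84.7, 63.0, 84.0, 75.5 and 74.1 CPM in bleomycin mice (-1.19 ± 0.33, adjusted p = 0.0215). Without saline mice 3 and 5 its log2 fold change was -0.53 (adjusted p = 0.34), 0 of the 16 were called and the median was -0.61. The count was 3 without saline mouse 5, 9 without saline mouse 3, 8 without bleomycin mouse 1, 9 without bleomycin mouse 4 and 10 without bleomycin mouse 2 or 5. In vehicle mice, which share no library with this comparison, all 16 were also called lower (median -1.10). There Foxj1 lost its call in 3 of 20 fits that left out 1 library, with the highest adjusted p (0.094) without saline vehicle mouse 5. Ciliated and club markers were both highest in saline mice 3 and 5, and their part in the results that change without these mice was not tested.

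Of 14 club and secretory cell markers 9 fell and 1 rose, and 2 were lower without saline mice 3 and 5. Scgb1a1, the main secretoglobin of club cells, was at 2459, 2642, 4238, 3051 and 4690 CPM in saline mice and at 1736, 1977, 1864, 1993 and 2018 CPM in bleomycin mice (-0.83 ± 0.18, adjusted p = 0.00466, and 0.071 without saline mice 3 and 5). The secretoglobin gene Scgb3a2 fell by 1.47 (adjusted p = 0.053 without these mice). Aldh1a1, a retinaldehyde dehydrogenase, fell by 0.79 and was still called without these mice (-0.71, adjusted p = 0.02). Upk3a, the member that rose, went from 0.0895 to 0.244 CPM to 0.361 to 2.67 CPM (2.38 ± 0.72). It lost its call in 5 of 20 fits that left out 1 library and without saline mice 3 and 5 (adjusted p = 0.13).

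**Figure D2:**
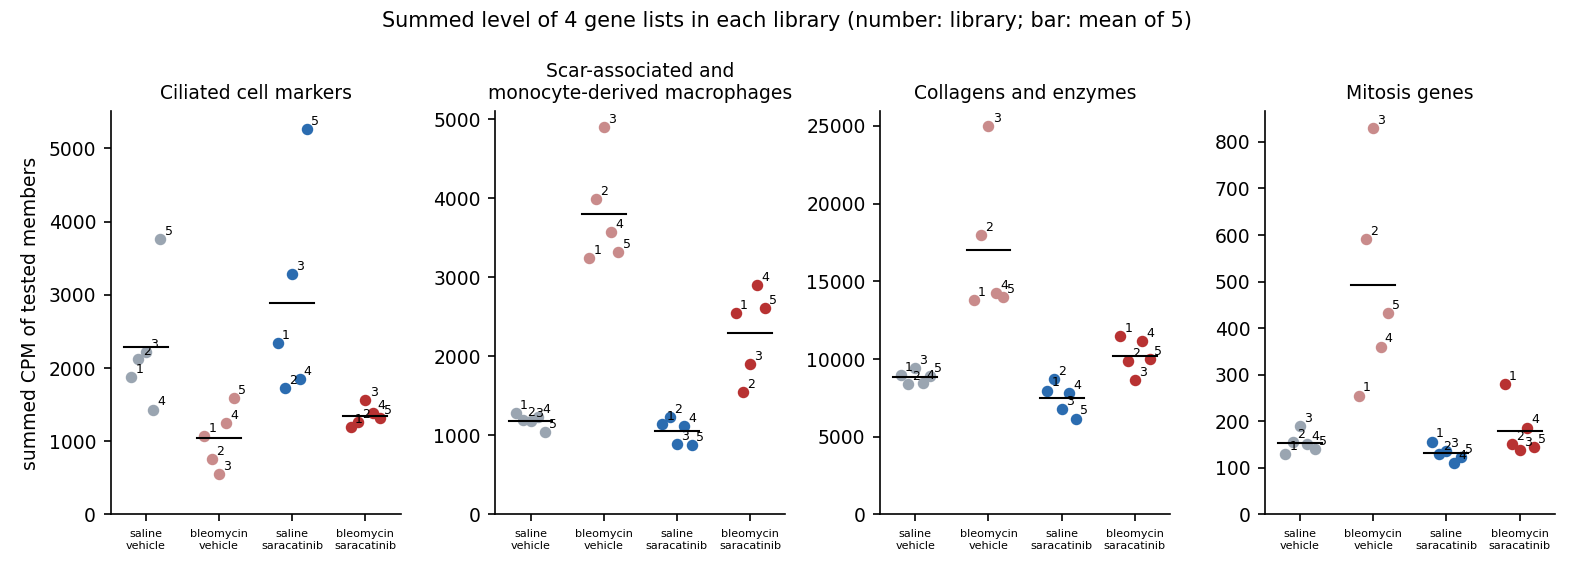
Summed CPM of the tested members of 4 gene lists in each of the 20 libraries, with the library number beside each point and a bar at the mean of 5. Ciliated markers are highest in saline saracatinib mouse 5 at 5268 CPM, macrophage markers are higher in all bleomycin mice, and mitosis genes reach 829 CPM in bleomycin mice given vehicle against at most 280 CPM in bleomycin mice given saracatinib.

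Markers of the alveolar epithelium were mostly not called, and over all genes tested 7.79% were called higher. Of 16 type 2 cell markers 4 rose, among them the lysozyme gene Lyz2 (0.87) and the surfactant protease gene Napsa (0.86), and 0 did without saline mice 3 and 5. Sftpc gave 0.39 ± 0.21 and the type 1 cell gene Ager 0.70 ± 0.28 (adjusted p = 0.0909). Ager was at 787, 1133, 512, 784 and 232 CPM in saline mice, where saline mice 3 and 5 were the lowest, and at 1022 to 1278 CPM in bleomycin mice. Of 14 type 1 cell markers 4 rose, with 0 without each of saline mice 3, 4 and 5 and bleomycin mice 1, 4 and 5, and 7 without saline mouse 2. Without saline mice 3 and 5 together 0 were higher, and the median was 0.18 against 0.55. Of 20 markers of the transitional state between type 2 and type 1 cells, 9 rose and 0 fell, and 5 were higher without saline mice 3 and 5. Lcn2, an iron-binding acute phase protein, was at 31.3, 35.1, 21.1, 20.1 and 21.5 CPM in saline mice and at 144, 78.2, 83.6, 170 and 162 CPM in bleomycin mice (2.30 ± 0.26, adjusted p = 2.05e-05). The growth factor gene Mdk rose by 0.94 ± 0.21 and Clu, which encodes clusterin, by 0.59 ± 0.15, with adjusted p = 0.0502 for Clu without saline mice 3 and 5. The keratin genes of that state gave -0.13 ± 0.16 for Krt8 and 0.0034 ± 0.15 for Krt18.

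Contractile genes were lower. Of 17 smooth muscle and pericyte markers 10 fell and 0 rose, with 1 lower without saline mice 3 and 5. Acta2, smooth muscle actin and a gene of myofibroblasts, was at 214, 195, 376, 351 and 595 CPM in saline mice and at 167, 171, 151, 139 and 153 CPM in bleomycin mice (-1.15 ± 0.26, adjusted p = 0.00657). Saline mouse 5 was the highest, and the adjusted p was 0.088 without saline mice 3 and 5 (-0.70). Cnn1, which encodes calponin, fell by 1.42 and kept its call there (-0.85, adjusted p = 0.033). The pericyte genes Pdgfrb (0.14), Cspg4 (-0.17), Notch3 (-0.04) and Rgs5 (0.03) were not called.

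Capillary genes included members that fell, and more of them were called when saline mice 3 and 5 were left out. Of 22 capillary endothelial markers 7 fell and 1 rose, with 4 lower without bleomycin mouse 1 or 4. Without saline mice 3 and 5, 9 were lower and 0 higher (median -0.71 against -0.45). Ednrb, the endothelin B receptor, fell by 1.09 and the apelin gene Apln by 1.08. Kdr, the VEGF receptor, was at 367 to 604 CPM in saline mice and at 209, 422, 329, 261 and 306 CPM in bleomycin mice (-0.65 ± 0.18), with overlap. Of 15 markers of venous and activated endothelium 3 rose and 2 fell. Ackr1, the chemokine-binding receptor of venules, was at 0.206 to 0.452 CPM in saline mice and 2.29, 0.216, 1.08, 1.61 and 1.87 CPM in bleomycin mice (2.09 ± 0.46). Bleomycin mouse 2 stood among the saline mice. Of 17 markers of striated muscle, which in lung lies in the sleeves of the pulmonary veins and in any attached heart tissue, 9 fell (3 by limma voom), with 5 without saline mouse 2, bleomycin mouse 3 or bleomycin mouse 5, 4 without saline mouse 5 and 2 without saline mice 3 and 5. Their summed CPM was 446 to 1321 in saline mice and 330 to 582 in bleomycin mice.

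Of 25 mitosis genes 0 rose and 0 fell by edgeR, with a median of 0.44, 6 were higher at an unadjusted p under 0.05, DESeq2 called 1 and limma voom 0, and 1 member was called without saline vehicle mouse 5, vehicle bleomycin mouse 3 or 5, or bleomycin mouse 2. Mki67, the proliferation marker, was at 38.7, 28.3, 31.8, 24.3 and 25.7 CPM in saline mice and at 77.5, 33.2, 32.2, 47.8 and 33.0 CPM in bleomycin mice (0.58 ± 0.27, adjusted p = 0.154). Bleomycin mouse 1 was the highest. Top2a, the mitotic topoisomerase, had the same order. Of 20 replication genes 1 rose, the cyclin gene Ccne1 (1.63), which lost its call in 5 of 20 fits that left out 1 library and without saline mice 3 and 5 (adjusted p = 0.14). DESeq2 called 3 replication genes higher and limma voom 0.

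Of 24 targets of p53, the DNA damage response factor, 11 rose and 1 fell, with 7 higher without saline mice 3 and 5. Eda2r, a death receptor gene, was at 4.15, 3.58, 5.08, 2.15 and 3.91 CPM in saline mice and at 13.0, 7.93, 11.9, 12.8 and 12.7 CPM in bleomycin mice (1.63 ± 0.19, adjusted p = 2.68e-05). Psrc1 rose by 2.49 ± 0.25 and the stress hormone gene Gdf15 by 1.92 ± 0.32. Cdkn1a, the cell cycle inhibitor p21, gave 0.20 ± 0.19. The member that fell was Trp73, which is also a gene of ciliated cells (-1.21, and -0.66 with adjusted p = 0.31 without saline mice 3 and 5).

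All 11 tested protein-coding genes of the mitochondrial genome were lower, without overlap between groups, and 6 were lower without saline mice 3 and 5. Their summed CPM was 11390 to 25235 in saline mice and 7748 to 8872 in bleomycin mice. mt-Co1, a subunit of complex IV, was at 3850, 3949, 5612, 3892 and 8289 CPM in saline mice and at 3022, 2745, 3158, 3185 and 3036 CPM in bleomycin mice (-0.76 ± 0.19). Saline mice 5 and 3 were again the highest, and its value without them was -0.36 (adjusted p = 0.14). Among 18 nuclear genes of oxidative phosphorylation edgeR and DESeq2 called 0, limma voom 1, and 1 was lower at an unadjusted p under 0.05 (median -0.03). Of 17 glycolysis genes 1 rose, the myeloid hexokinase gene Hk3 (1.08).

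The bleomycin effect was then compared with that in vehicle mice, which share no library with the comparison above, though all 20 libraries share 1 fit. In vehicle mice 7716 genes (40.9%) were called, 3888 higher (20.6%) and 3828 lower (20.3%). Of the 3011 genes called in saracatinib mice, 79.4% were also called in vehicle mice, and of the vehicle calls 31.0% were called in saracatinib mice. Of the 2390 genes called in both, 2386 had the same direction. Genes called in saracatinib mice had a median size of 0.77 on the log2 scale there and 0.80 in vehicle mice, while genes called in vehicle mice had 0.27 and 0.64. Choosing genes by a call favours large values in the mice of that call, and over all genes tested the median sizes were 0.18 with saracatinib and 0.28 with vehicle. Across all genes tested the Pearson correlation of the log2 fold changes was 0.776, as a description across genes, which are not independent replicates. The difference between the bleomycin effects, saracatinib minus vehicle, was called for 199 genes (1.06%), 115 above 0 (0.610%) and 84 below 0 (0.446%). Its unadjusted p was under 0.05, in either direction, for 3449 of the 18846 genes tested. The bleomycin effect was smaller in size with saracatinib for 195 of the 199. Choosing genes by a called difference can itself favour this, because sizes over all genes were larger with vehicle. Of the 621 genes called in saracatinib mice alone the difference was called for 3, and of the 5326 called in vehicle mice alone for 165.

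**Figure D3:**
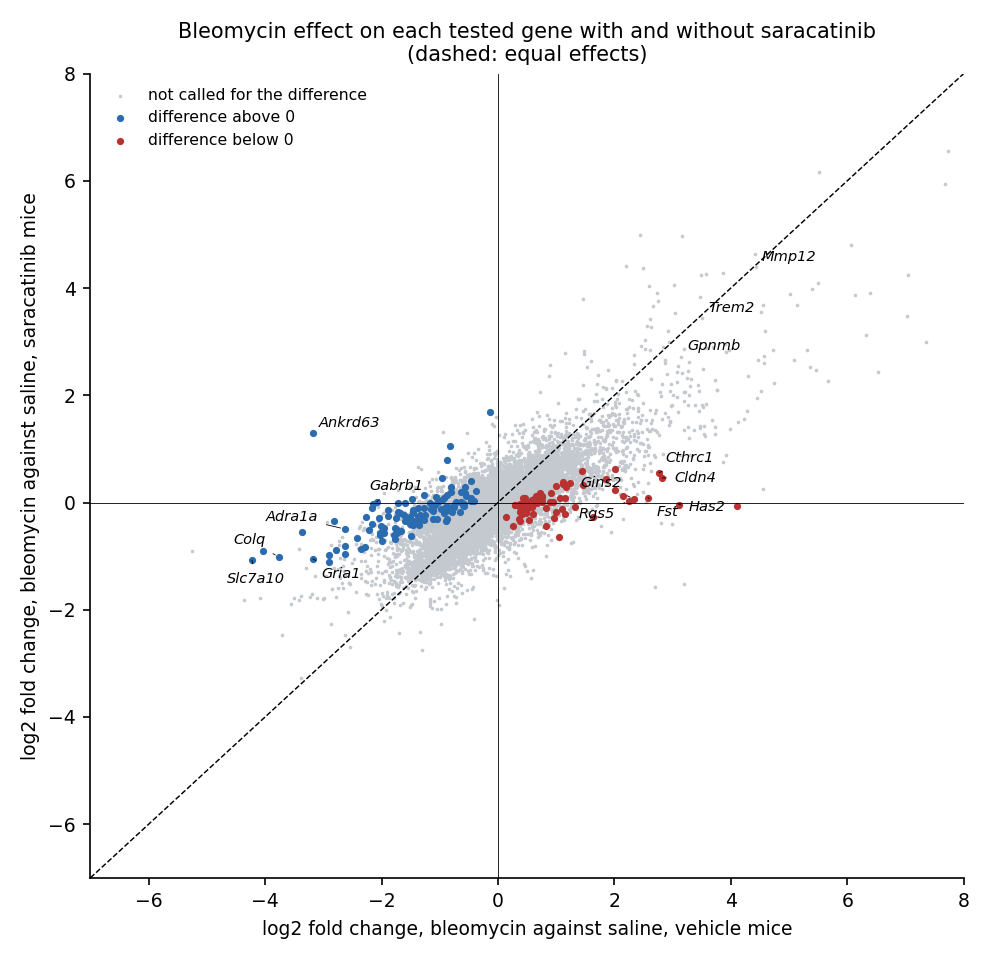
Log2 fold change after bleomycin of each of the 18846 genes tested, in vehicle mice on the x axis and in saracatinib mice on the y axis, with genes called for the difference in colour and the line of equal effects dashed. Of the 199 called genes 195 have the smaller effect with saracatinib, Slc7a10 lies at -4.23 and -1.07, and Mmp12 at 4.43 and 4.39 lies by the line of equal effects.

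The count of 199 depends on single libraries and on the test. It was 35 without vehicle bleomycin mouse 2 and 583 without bleomycin mouse 1, and stayed within 1.5 times of 199 only without saline mouse 4 (277), bleomycin mouse 4 (208), vehicle bleomycin mouse 4 (136) or vehicle bleomycin mouse 5 (213). Leaving out saline mice 3 and 5 together gave 45, of which 39 were among the 199. DESeq2 called 846 and limma voom with quality weights 415.

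Differences above 0 were led by genes that were lower after bleomycin in vehicle mice. Slc7a10, an amino acid transporter gene of alveolar fibroblasts (ENSMUSG00000030495, chromosome 7, 35186385 to 35201114 on GRCm38), was at 43.3, 57.1, 45.6, 66.2 and 41.1 CPM in saline mice and at 15.8, 32.4, 32.5, 17.0 and 22.5 CPM in bleomycin mice with saracatinib. With vehicle it was at 74.6 to 119 CPM after saline and 1.46 to 9.49 CPM after bleomycin. The groups of bleomycin mice did not overlap, and neither did the groups of saline mice. Its log2 fold changes were -1.07 and -4.23, a difference of 3.15 ± 0.43 (adjusted p = 0.00423) that kept its call in each of the 20 fits that left out 1 library. Colq, the collagen-like anchor of acetylcholinesterase, differed by 2.75 ± 0.46, the adrenergic receptor gene Adra1a by 2.14 ± 0.37 and the fibroblast growth factor receptor gene Fgfr4 by 1.76 ± 0.27, and these 3 also kept the call in all 20. The glutamate receptor gene Gria1 (2.13), the GABA receptor gene Gabrb1 (2.10) and Tcf21, the transcription factor of alveolar fibroblasts (1.29), lost the call in 12, 3 and 12 of those fits. Ankrd63 had the largest difference (4.49 ± 0.98). Its log2 fold change was -3.19 with vehicle and 1.30 with saracatinib, of opposite sign and not called with saracatinib (adjusted p = 0.183). It was at 19.4 CPM in bleomycin mouse 2 against 0.610 to 7.81 CPM in the other bleomycin mice, and the difference lost its call in 13 of the fits. Of the 15 alveolar fibroblast markers 13 fell with vehicle and 2 with saracatinib, and the difference was called for 5, all above 0: Slc7a10, Fgfr4, Tcf21, Scn3a (1.76) and Itga8 (0.93). The list median was -0.77 with vehicle and -0.16 with saracatinib, or -0.35 without saline mice 3 and 5. Summed CPM of the list after saline was 7195 to 12036 with saracatinib and 11004 to 13375 with vehicle. After bleomycin it was 8413 to 10406 with saracatinib and 6785 to 8141 with vehicle.

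Differences below 0 were led by genes that bleomycin raised in vehicle mice and for which no rise was called with saracatinib. Has2, which makes hyaluronan, was at 0.701 to 1.77 CPM in saline mice and 2.90, 0.577, 0.694, 0.995 and 1.25 CPM in bleomycin mice, against 0.622 to 1.00 CPM and 2.65 to 17.6 CPM with vehicle. The difference was -3.14 ± 0.76 (adjusted p = 0.0476) and lost the call in 15 of 20 fits. The activin antagonist gene Fst (-2.48 ± 0.54), the tight junction gene Cldn4 (-2.36 ± 0.50), the replication gene Gins2 (-2.28 ± 0.38), the pericyte gene Rgs5 (-2.22 ± 0.43) and Cthrc1 (-2.21 ± 0.43, adjusted p = 0.0224) followed. Gins2 kept its call in each of the 20 fits, Cthrc1 lost its call in 3, Rgs5 in 4, and Fst and Cldn4 in 12. With vehicle Cthrc1 rose to 8.40 to 19.5 CPM, above all 5 bleomycin mice with saracatinib. For Col1a1 the difference was -1.08 and was not called (adjusted p = 0.078).

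For mitosis genes 24 of 25 rose with vehicle (median 1.74) and 0 with saracatinib (0.44), and the difference was called for 2, Cdk1 and Tpx2. It was below 0 at an unadjusted p under 0.05 for 24 of the 25, and DESeq2 called 13. Cdk1, the kinase that starts mitosis, was at 3.42, 2.73, 3.50, 2.51 and 4.42 CPM in saline mice and at 5.71, 2.81, 3.16, 3.52 and 2.81 CPM in bleomycin mice, against 4.99 to 20.1 CPM in bleomycin mice with vehicle. The difference was -2.01 ± 0.42 (adjusted p = 0.0347) and lost the call in 11 of 20 fits. Its RefSeq promoter window is shown because mitosis genes share a known element, the cell cycle homology region. The letters TTTGAA, in capitals, were searched on both strands and stood in 17.9% of 32851 promoters and in 15 of the 20 mitosis genes with a promoter in the table.
Cdk1, chr10:69352913-69353012, minus strand: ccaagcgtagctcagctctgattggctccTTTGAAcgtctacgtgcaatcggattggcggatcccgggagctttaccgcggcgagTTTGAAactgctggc
The NF-Y box CCAAT stood in 37.4% of all promoters and in 16 of the same 20.

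Glycolysis genes showed the same layout: 16 of 17 rose with vehicle, 1 with saracatinib, and the difference was called for 5, all below 0: Eno1 (-0.88), Gapdh, Pgk1 (-0.66), Ldha (-0.64) and Tpi1 (-0.53). Gapdh was at 134 to 172 CPM in saline mice and 156 to 222 CPM in bleomycin mice, against 228 to 375 CPM in bleomycin mice with vehicle (difference -0.70 ± 0.16, adjusted p = 0.044, call lost in 15 of 20 fits). Among transitional epithelium markers 18 of 20 rose with vehicle and the difference was called for 4, all below 0, Cldn4, Krt18 (-0.90), Clu (-0.86) and Krt19 (-0.64). Krt18 and Clu lost the call in 15 and 17 of 20 fits that left out 1 library.

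Of 18 nuclear oxidative phosphorylation genes 13 rose with vehicle and 0 with saracatinib. The difference was below 0 for 12 at an unadjusted p under 0.05, and edgeR called 2, DESeq2 6 and limma voom 5. For activated fibroblast markers edgeR called 3 of 19 differences below 0 and DESeq2 7.

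Immune lists gave few or no called differences. Of 24 macrophage markers 23 rose with vehicle and 20 with saracatinib, and the difference was called for 1, Cd63 (-0.74), a tetraspanin gene. It was below 0 at an unadjusted p under 0.05 for 6 of the 24, and DESeq2 called 2. Over all 18846 genes tested, in either direction, 3449 differences reached an unadjusted p under 0.05. The list median was 1.36 with saracatinib and 1.91 with vehicle, and 21 of the 24 had the smaller effect with saracatinib. Summed CPM of the list after bleomycin was 1543 to 2901 with saracatinib and 3245 to 4896 with vehicle. For Mmp12 the bleomycin effects with saracatinib and vehicle were 4.39 and 4.43 and for Trem2 3.44 and 3.51, closer than the list medians. For MHC class II, chemokines, T cells, regulatory T cells and interferon-stimulated genes the difference was called for 0 members by edgeR, DESeq2 and limma voom, and an unadjusted p under 0.05 was reached by 1 to 3 members of each list. For collagens edgeR called 0 differences of 35, while 14 were below 0 at an unadjusted p under 0.05, DESeq2 called 8 below 0, and limma voom 2 below and 1 above 0. A difference that is not called does not show that the effects were equal. The list medians were closer to 0 with saracatinib than with vehicle for 25 of the 43 lists.

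**Figure D4:**
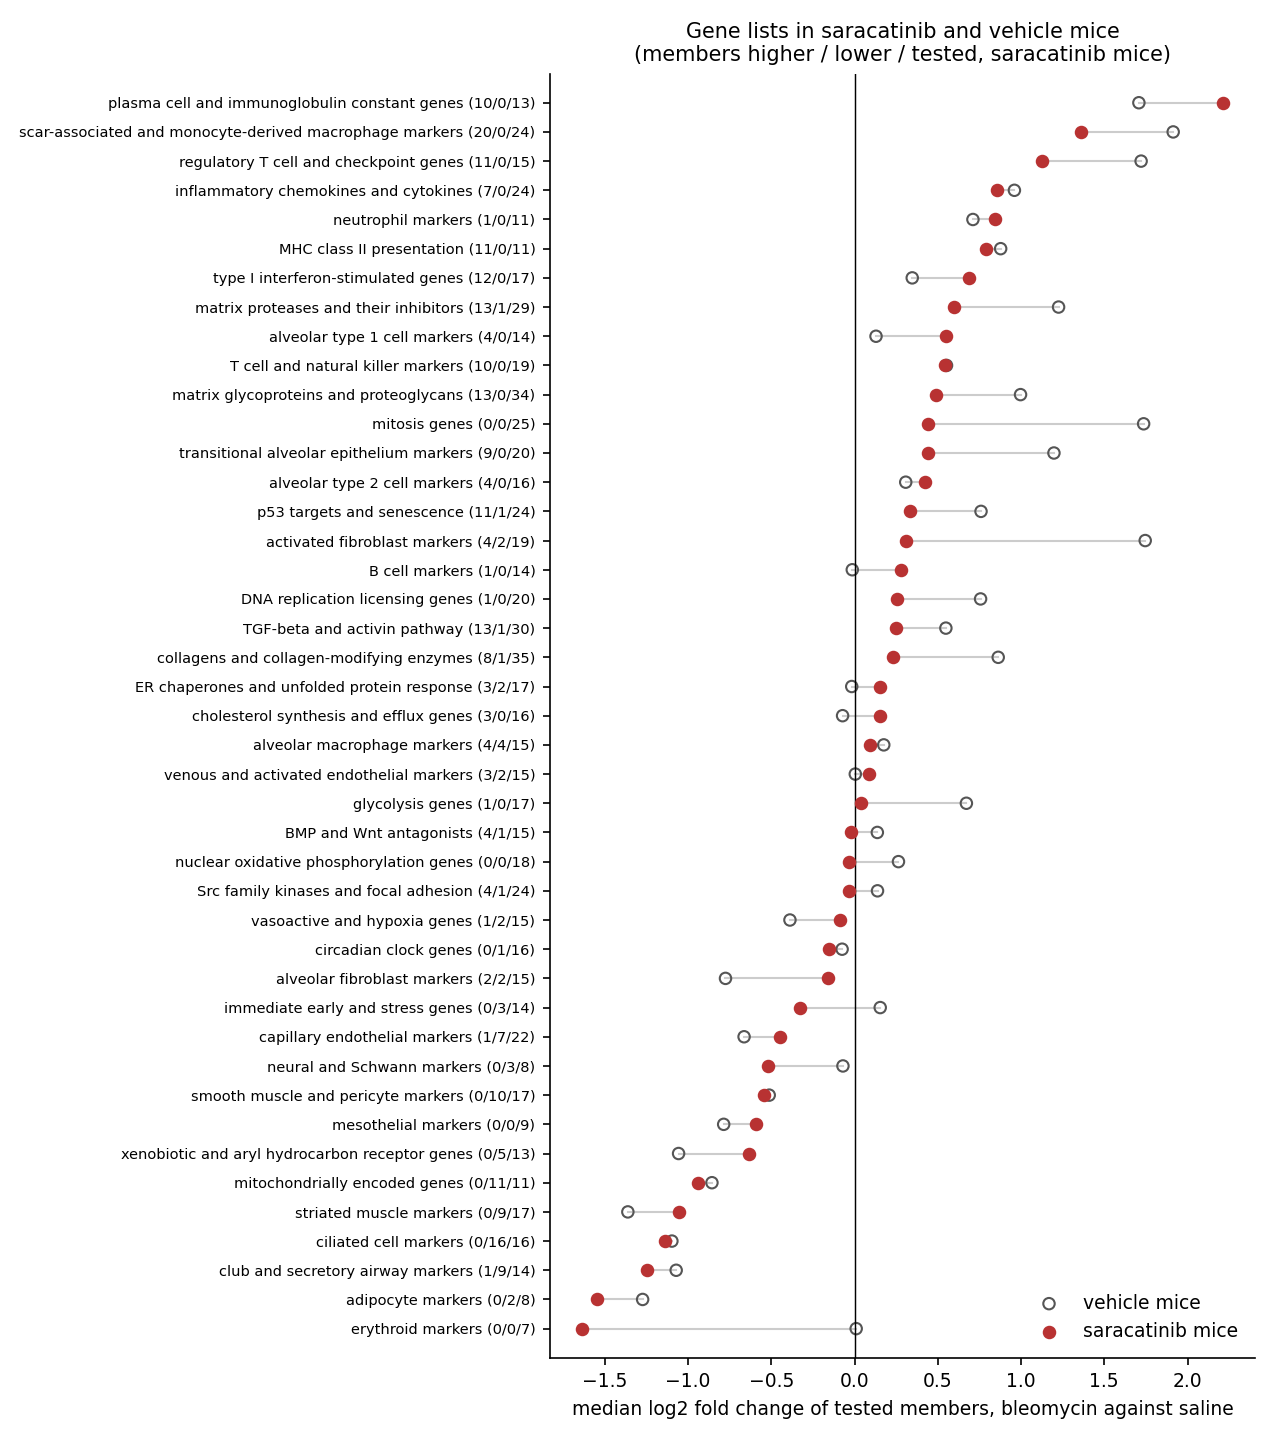
Median log2 fold change after bleomycin of the tested members of 43 gene lists, in saracatinib mice (filled) and vehicle mice (open), with members higher, lower and tested in saracatinib mice in brackets. Medians of mitosis genes (0.44 against 1.74) and activated fibroblasts (0.31 against 1.75) lie far apart, and those of ciliated cells (-1.14 against -1.10) and T cells (0.54 against 0.55) almost coincide.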

How the data were processed

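Libraries were made from left lung RNA depleted of ribosomal RNA, per the labels' protocols, with a kit that keeps strand. Per the submitters' processing notes, STAR 2.6.1d, Picard, featureCounts of Subread 1.6.3 and edgeR were used, and the builds mm9 and GRCm38 are named. The authors deposited a table of whole-number counts per gene, whose 55536 identifiers all matched GENCODE M21 on GRCm38. Which strand setting the counting used was not found in the labels or headers, so reads of overlapping, antisense or near-identical genes are uncertain.

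The 4 groups of the bleomycin model (20 libraries) were fitted together in R 4.3.3 with edgeR 4.0.16: filterByExpr by group, TMM scaling (factors 0.949 to 1.03), 1 coefficient per group, quasi-likelihood test, and Benjamini-Hochberg adjustment over 18846 genes, called at 0.05. The 3 contrasts were bleomycin against saline with saracatinib, the same with vehicle, and their difference. CPM uses TMM-scaled totals, and standard errors come from the test. The chi-square per degree of freedom between replicates was 4.29 to 52.7 over 40 pairs, so no library repeats another. Scripts were tested on simulated data.

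The members and the 43 gene lists were chosen with earlier results of these data known. Named genes are a panel of 14, the 10 largest called changes on each side with a mean of at least 1 CPM and no overlap, the 6 largest differences on each side, up to 4 called members a list, and members described by their role, chosen after their values were seen. Promoters of called mitosis genes were planned, none was called, and the interferon and Cdk1 promoters were chosen instead, after values were seen. Alternatives were DESeq2 1.42.0 (size factors and test), no filter, limma 3.58.1 voom with quality weights, only the compared groups, each library left out and, added later, saline saracatinib libraries 3 and 5 left out together. The other model's libraries and the authors' normalized tables were not used here. Single values of some list members are not reported here.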

Additional observations from a re-analysis of the deposited data

Results flagged for a closer look

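Among 200 groups of 5 values checked for a single sample far from the rest, 8 passed a gap of 0.71 of the range, and chance alone flags about 1 in 20 such groups. In saline mice with saracatinib, mouse 5 was high for the transfer RNA gene mt-Tt (log2 CPM 2.13 against -0.07 to 0.49 in the others) and for Krt18 (7.00 against 6.09 to 6.30). Mouse 1 of that group was high for C1qa (4.23 against 3.87 to 3.96) and low for Clu (6.83 against 7.00 to 7.06). In bleomycin mice with saracatinib, mouse 2 was low for Mmp12 (log2 CPM 3.70 against 5.35 to 5.95) and had the most counts, at 13.9 M against 12.7 to 13.0 M. Mouse 3 was low for mt-Tm (-1.10 against 0.10 to 0.39) and mouse 4 high for Ifit1 (4.39 against 4.14 to 4.20).

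The bleomycin effect differed between saracatinib and vehicle mice by the test of the difference for the genes described above. On the log2 scale, saracatinib minus vehicle, the values above 0 were 4.49 for Ankrd63, 3.15 for Slc7a10, 2.75 for Colq, 2.14 for Adra1a, 2.13 for Gria1, 2.10 for Gabrb1, 1.76 for Fgfr4 and 1.29 for Tcf21. Those below 0 were -3.14 for Has2, -2.48 for Fst, -2.36 for Cldn4, -2.28 for Gins2, -2.22 for Rgs5, -2.21 for Cthrc1, -2.01 for Cdk1, -1.77 for Tpx2, -0.90 for Krt18, -0.86 for Clu and -0.70 for Gapdh.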

How the results depend on the processing

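In saracatinib mice, leaving out 1 library gave 1672 to 3489 called genes, 942 to 1711 higher and 730 to 1788 lower. In vehicle mice it gave 6558 to 8235, and for the difference 35 to 583. Leaving out saline saracatinib libraries 3 and 5 together gave 1055 called, 619 higher and 436 lower, and 45 for the difference. For the difference DESeq2 gave 846 and limma voom 415, and the cause was not tested. For the main comparison DESeq2's size factors gave 2963, no filter 2557, DESeq2 3533, limma voom 3030 and the compared groups alone 2219. Of the calls under limma voom 2535 were shared with the main 3011. No paired analysis was possible because replicate numbers only follow the order of deposit. Fold changes of genes near 1 CPM rest on few counts.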

Other observations

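Other gene groups also moved in saracatinib mice after bleomycin. Of 13 xenobiotic genes 5 fell and 0 rose, with 3 without saline mouse 5 or bleomycin mouse 1, 3 or 4, and 1 without saline mice 3 and 5. The heat shock genes Hspa1a (-1.62) and Hspa1b (-1.38), whose reads are hard to tell apart, were called lower, with adjusted p = 0.13 and 0.18 without those mice. Of 17 endoplasmic reticulum chaperone genes 3 rose and 2 fell, with 2 to 6 higher and 0 to 2 lower when 1 library was left out, and 1 and 0 without saline mice 3 and 5. Hspa5, the chaperone BiP, was at 318 to 421 CPM in saline mice and 450 to 500 CPM in bleomycin mice (0.38 ± 0.10, adjusted p = 0.014, and 0.28 with adjusted p = 0.13 without saline mice 3 and 5), while in vehicle mice its log2 fold change was -0.02. The difference was not called (adjusted p = 0.14).

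Erythroid genes had a median of -1.64 over 7 members and edgeR called 0, DESeq2 1 and limma voom 0, with 4 lower at an unadjusted p under 0.05. Their summed CPM was 18.2 to 212 in saline mice and 12.0 to 58.3 in bleomycin mice. Cyp1a1, the enzyme induced by the aryl hydrocarbon receptor, gave -0.90 with saracatinib and -5.25 with vehicle, and the difference was not called.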
